A study of Arabidopsis thaliana with 30 samples.

Results

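Expansins are small secreted proteins that loosen plant cell walls, and the genes described here are 10 expansin and expansin-like genes that act outside root hairs. They were chosen by symbol in the probe gene table: the alpha-expansins EXPA4 (AT2G39700), EXPA8 (AT2G40610), EXPA9 (AT5G02260), EXPA16 (AT3G55500) and EXPA20 (AT4G38210), the beta-expansin EXPB3 (AT4G28250), the expansin-like A genes EXLA1 (AT3G45970), EXLA2 (AT4G38400) and EXLA3 (AT3G45960), and the expansin-like B gene EXLB1 (AT4G17030). These are 10 of the 13350 genes that a probe set named on the array, and each was measured by 1 probe set of its own among the 22746 tested. The RefSeq gene table lists 35 expansin genes for Arabidopsis, of which a further 8 had a named probe set. Another 2 probe sets matched several genes, at least 1 of them an expansin, and were not used.

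In plants, a cell enlarges when turgor stretches a wall that has been made able to yield. Expansins act in the acidified wall without cutting its polymers, by loosening the contacts between cellulose and the matrix polysaccharides that coat it, and alpha- and beta-expansins are the classes for which this activity is known. Expansin-like A and B proteins share the domains of the family, but wall loosening has not been established for them. Expansin genes are usually expressed in growing organs, and the family as a whole responds to hormones, light and stress.

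The arrays came from whole seedlings of Arabidopsis thaliana, 7 days old, that all carried a single-copy 35S:His6FLAG-RPL18B transgene in Col-0, a tagged ribosomal protein under a broadly active viral promoter. Seedlings were given 2 h of hypoxia, 2 h of air, 9 h of hypoxia followed by 1 h of recovery in air, 9 h of hypoxia, or 9 h of air, and air is called non-stress in the labels. From each condition, polysomal RNA, pulled down through the tagged ribosomes and labelled IP RNA, and total RNA were hybridised to Affymetrix arrays. There were 3 replicate experiments and thus 30 arrays in 10 groups of 3.

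Treatments started when the light period ended, so the 2 h and 9 h groups differ in both duration and hour of harvest, which cannot be told apart. Recovery seedlings were harvested 1 h after the 9 h groups they are compared with, and no air group of that hour is used here, so recovery and the later hour cannot be told apart either. Values are log2 signals. For total RNA they are given as deposited, since the array means were close together (5.754 to 5.805). The polysomal array means lay between 4.33 and 5.37 and were lowest under hypoxia. Polysomal values and all comparisons with them are therefore given after subtracting each array's mean over the probe sets tested, unless called deposited. A signal is compared only within a probe set, and the small number of arrays limits the precision. Because whole seedlings were used, fewer cells of a type and less RNA per cell cannot be told apart in any of these values.

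The treatment labels were checked against 5 core hypoxia genes, of which 5 rose in total RNA after 2 h of hypoxia (median log2 change 5.27) and 5 after 9 h (5.43), and 5 fell after recovery relative to 9 h of hypoxia (-2.97). The gene lists were chosen with earlier results of these data known, so this check is not independent of the data. Root and shoot genes were both present: in air the group means were 5.65 to 13.41 for the root markers PYK10, EXPA7 and EXPA18 and 11.27 to 12.98 for the shoot marker LHCB4.2, the only one of its list with a named probe set. A change is called below where limma's adjusted p (Benjamini-Hochberg over all 22746 probe sets) was under 0.05, and errors are standard errors of the model with 3 arrays per group.

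In total RNA EXPA4, EXPA9 and EXPB3 were below air after 2 h and 9 h of hypoxia and did not return within 1 h of air. Their signals were lower at 9 h than at 2 h of hypoxia, a comparison made after the data were seen. The 9 h effect relative to air was called larger than the 2 h effect for EXPA9, but not for EXPA4 (adjusted p = 0.0628) or EXPB3 (adjusted p = 0.0912). The alpha-expansins EXPA16 and EXPA20 were not called at 9 h (-0.13 and -0.03). EXPA8 was not called at 2 h and was 3.51-fold lower at 9 h, and EXLA2 fell at both times. EXLA1 behaved differently from these genes, with a level after recovery that was 14.6-fold that in 9 h of air.

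After 2 h of hypoxia, 0 of the 10 genes rose and 5 fell in total RNA, where 8.2% of all probe sets rose and 12.5% fell. The median change of the 10 genes was -0.46, against -0.01 over all probe sets. After 9 h of hypoxia 1 rose and 6 fell, where 21.3% of probe sets rose and 24.5% fell, and the medians were -0.73 for the 10 genes and 0.03 for all probe sets. Between recovery and 9 h of hypoxia 2 rose and 1 fell, beside 12.5% and 9.65% of probe sets, and the medians were -0.04 and -0.04. Against 9 h of air, 2 rose and 6 fell after recovery, beside 18.2% and 20.6%, with medians of -0.76 and -0.005. The last comparison and the 9 h comparison share the 9 h air arrays, and recovery minus 9 h of hypoxia shares arrays with both.

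The share of called probe sets that rose depends on how arrays are centred. It was 39.6% at 2 h, 46.6% at 9 h and 56.5% for recovery minus 9 h of hypoxia, and with each array's median subtracted it was 50.1%, 67.2% and 32.5%. Median centring moved the median of all probe sets to 0.20 at 9 h and -0.15 for recovery minus 9 h of hypoxia. Relative to that shift, EXPA4, EXPA8, EXPA9, EXPB3 and EXLA2 were still called lower at 9 h.

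**Figure D1:**
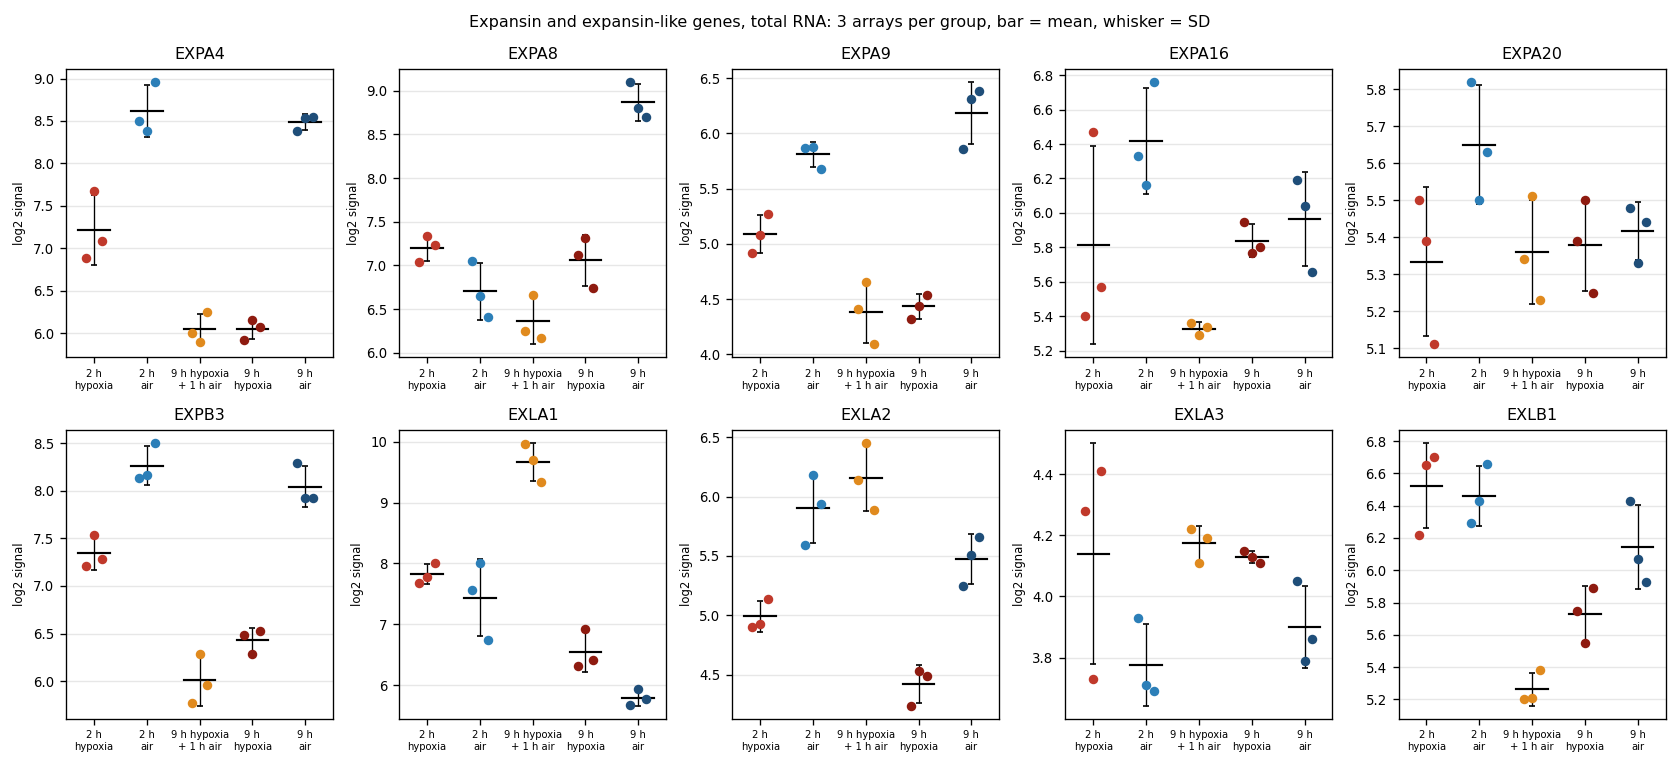
Log2 signal in total RNA (vertical axes, one panel per gene, axes do not start at 0) in each of 3 arrays per group (points), with the group mean (bar) and SD (whisker). EXPA4, EXPA9 and EXPB3 lie lower in all hypoxia and recovery arrays than in the air arrays of the same time, EXPA8 is highest in 9 h of air, and EXLA1 is highest after recovery.

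Of the 5 alpha-expansins described here, EXPA4 had the largest falls under hypoxia in total RNA. Its total signal was 6.89, 7.68 and 7.09 after 2 h of hypoxia, against 8.50, 8.38 and 8.96 in 2 h of air. It was 6.0, 5.90 and 6.25 after recovery and 5.92, 6.16 and 6.07 after 9 h of hypoxia, against 8.38, 8.53 and 8.55 in 9 h of air. Every hypoxia and recovery array was below every air array, and the recovery and 9 h hypoxia arrays overlapped. The log2 change was -1.40 ± 0.27 at 2 h (2.63-fold lower, adjusted p = 0.000463) and -2.44 ± 0.27 at 9 h (5.42-fold lower, adjusted p = 3.91e-08). After recovery the gene remained 5.40-fold below 9 h of air, and its difference from 9 h of hypoxia was 0.01 with a 95% interval of -0.56 to 0.57 (-0.10 with medians subtracted). The 2 air groups differed by -0.13 (95% interval -0.69 to 0.44). With all arrays of replicate 3 left out, the 2 h fall was -1.16 and no longer called (adjusted p = 0.0622).

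EXPA8, also an alpha-expansin, was highest in the late air group. Its signal was 7.04, 7.34 and 7.23 after 2 h of hypoxia, against 7.05, 6.65 and 6.41 in 2 h of air, groups that overlapped. It was 6.25, 6.66 and 6.17 after recovery and 7.12, 7.31 and 6.74 after 9 h of hypoxia, against 9.10, 8.80 and 8.70 in 9 h of air. The 9 h air arrays stood above all others, and the recovery arrays were all below the 9 h hypoxia arrays. In air EXPA8 was 4.47-fold higher at 9 h than at 2 h (log2 change 2.16 ± 0.25, adjusted p = 8.19e-07), whereas under hypoxia 9 h and 2 h differed by -0.15 (95% interval -0.67 to 0.37, adjusted p = 0.695). Relative to air the change was 0.50 ± 0.25 at 2 h (adjusted p = 0.192) and -1.81 ± 0.25 at 9 h (adjusted p = 1.24e-06). Recovery was 5.67-fold below 9 h of air (log2 change -2.50, adjusted p = 8.16e-09). The difference between recovery and 9 h of hypoxia, -0.69, missed the threshold with an adjusted p of 0.05028, and passed it with replicate number as a block (adjusted p = 0.0118) and with array means or medians subtracted (0.0459 and 0.0182). It also passed without recovery replicate 2 (-0.84, adjusted p = 0.0366) or without 9 h hypoxia replicate 3 (-0.85, adjusted p = 0.0365).

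EXPA9, the third of the alpha-expansins, fell in steps. Total signals were 4.92, 5.08 and 5.27 after 2 h of hypoxia, against 5.87, 5.88 and 5.68 in 2 h of air. They were 4.41, 4.65 and 4.09 after recovery and 4.32, 4.44 and 4.54 after 9 h of hypoxia, against 5.86, 6.31 and 6.38 in 9 h of air. No hypoxia or recovery array reached an air array, and recovery overlapped 9 h of hypoxia. The gene was 1.65-fold lower at 2 h (log2 change -0.72 ± 0.19, adjusted p = 0.0079), 3.36-fold lower at 9 h (-1.75 ± 0.19, adjusted p = 3.04e-08) and 3.49-fold lower after recovery than in 9 h of air. The 2 h call ended with replicate 1 or replicate 2 left out of both groups (-0.61, adjusted p = 0.0667, and -0.68, adjusted p = 0.0561). EXPA9 signals were low at the 37.9 percentile of probe sets after 9 h of hypoxia and 36.4 after recovery.

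The falls of EXPA16, another alpha-expansin, were smaller and less even. At 2 h its signal was 5.40, 6.47 and 5.57 under hypoxia, against 6.33, 6.16 and 6.76 in air. Replicate 2 under hypoxia lay above replicates 1 and 2 in air, so the groups overlapped, although the change of -0.60 ± 0.20 was called (adjusted p = 0.031). The call ended with medians subtracted (-0.54, adjusted p = 0.0523) and with quantile normalization (-0.56, 0.0556). Fitting only these 2 groups gave an adjusted p of 0.196. Leaving out 1 array also ended the call in 4 cases: 2 h hypoxia replicate 1 (-0.40, adjusted p = 0.218) or replicate 3 (-0.48, 0.173), and 2 h air replicate 1 (-0.65, 0.0528) or replicate 3 (-0.43, 0.201).

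Later in the course EXPA16 was 5.36, 5.29 and 5.34 after recovery and 5.95, 5.77 and 5.8 after 9 h of hypoxia, against 6.19, 6.04 and 5.66 in 9 h of air. The recovery arrays were below all arrays of both other groups. Recovery was 1.56-fold below 9 h of air (-0.64 ± 0.20, adjusted p = 0.0118), a call that ended without 9 h air replicate 1 (-0.52, adjusted p = 0.0695), while the 9 h hypoxia change of -0.13 was not called (95% interval -0.54 to 0.28) and was 0.035 with medians subtracted. Its difference between recovery and 9 h of hypoxia was -0.51 (adjusted p = 0.0687), and passed with medians subtracted (-0.62, adjusted p = 0.0205) and with only these 2 groups fitted (0.00317).

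EXPA20 varied least among the alpha-expansins in total RNA, with all 15 total arrays between 5.11 and 5.82. Its signal was 5.5, 5.39 and 5.11 after 2 h of hypoxia, against 5.82, 5.5 and 5.63 in 2 h of air. After recovery it was 5.34, 5.51 and 5.23 and after 9 h of hypoxia 5.39, 5.5 and 5.25, against 5.48, 5.33 and 5.44 in 9 h of air. The 2 h groups overlapped, and so did the 3 later groups, whereas the 9 h air arrays were all below the 2 h air arrays (-0.23, adjusted p = 0.365). No total change of EXPA20 was called, the largest being -0.32 at 2 h (95% interval -0.57 to -0.06, adjusted p = 0.0778), which passed without 2 h hypoxia replicate 1 (-0.40, adjusted p = 0.0438).

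The beta-expansin EXPB3 followed a course close to that of EXPA4. Its signal was 7.21, 7.54 and 7.28 after 2 h of hypoxia, against 8.13, 8.16 and 8.50 in 2 h of air. It was 5.77, 6.29 and 5.96 after recovery and 6.48, 6.28 and 6.53 after 9 h of hypoxia, against 8.29, 7.92 and 7.92 in 9 h of air. The air arrays were above all others, and of the recovery arrays only replicate 2 reached the lowest 9 h hypoxia array. The change was -0.92 ± 0.20 at 2 h (1.89-fold lower, adjusted p = 0.00119), -1.61 ± 0.20 at 9 h (3.05-fold lower, adjusted p = 1.74e-07) and -2.04 ± 0.20 for recovery against 9 h of air (4.10-fold lower, adjusted p = 4.35e-09). Its further difference between recovery and 9 h of hypoxia was -0.42 and not called (adjusted p = 0.134), but was called with medians subtracted (-0.53, 0.0471). Without replicate 3 the 2 h fall was -0.77 and not called (adjusted p = 0.0931).

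EXLA1 was the one gene of the 10 with its highest level after recovery by a wide margin. Signals were 7.68, 7.78 and 8.01 after 2 h of hypoxia, against 7.57, 8.0 and 6.75 in 2 h of air. They were 9.96, 9.70 and 9.34 after recovery and 6.31, 6.92 and 6.41 after 9 h of hypoxia, against 5.68, 5.94 and 5.77 in 9 h of air. At the later time the 3 groups were fully apart, with recovery on top and air at the bottom, while at 2 h hypoxia and air overlapped. Recovery was 8.70-fold above 9 h of hypoxia (log2 change 3.12 ± 0.25, adjusted p = 1.4e-09) and 14.6-fold above 9 h of air (3.87 ± 0.25, adjusted p = 3.71e-12).

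The difference of EXLA1 between hypoxia and air was smaller, 0.75 ± 0.25 at 9 h (1.68-fold higher, adjusted p = 0.0168) and 0.38 ± 0.25 at 2 h (adjusted p = 0.361). The 9 h call ended without 9 h hypoxia replicate 2 (0.57, adjusted p = 0.109) or without 9 h air replicate 1 (0.69, adjusted p = 0.0552). Both treatments were lower at 9 h than at 2 h: in air by 1.65 on the log2 scale (3.13-fold, adjusted p = 5.49e-05) and under hypoxia by 1.27 (2.42-fold, adjusted p = 0.000296), and the recovery arrays were above all arrays of both 2 h groups.

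EXLA2, known in Arabidopsis from the response to necrotrophic fungi, fell under hypoxia and rose after recovery. Its signal was 4.90, 4.93 and 5.14 after 2 h of hypoxia, against 5.59, 6.18 and 5.94 in 2 h of air. It was 6.14, 6.45 and 5.89 after recovery and 4.24, 4.53 and 4.49 after 9 h of hypoxia, against 5.25, 5.51 and 5.66 in 9 h of air. The groups at each time did not overlap, and recovery lay above 9 h of air. The change was -0.91 ± 0.19 at 2 h (1.88-fold lower, adjusted p = 0.000771) and -1.05 ± 0.19 at 9 h (2.07-fold lower, adjusted p = 4.04e-05). Recovery was 3.34-fold above 9 h of hypoxia (1.74 ± 0.19, adjusted p = 1.29e-07) and 1.61-fold above 9 h of air (0.69 ± 0.19, adjusted p = 0.00422). After 9 h of hypoxia the signal was low, at the 37.5 percentile of probe sets.

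The signal of EXLA3 was low in total RNA, where its group means lay between the 22.6 and 32.8 percentile of probe sets on the array, and the file holds no detection calls. Signals were 4.28, 3.73 and 4.41 after 2 h of hypoxia, against 3.93, 3.71 and 3.69 in 2 h of air. They were 4.22, 4.11 and 4.19 after recovery and 4.15, 4.13 and 4.11 after 9 h of hypoxia, against 4.05, 3.79 and 3.86 in 9 h of air. Recovery and 9 h hypoxia arrays were all above the 9 h air arrays, by 0.27 and 0.23 on average, but no total change of EXLA3 was called (adjusted p of 0.252 and 0.31). At 2 h the change of 0.36 (adjusted p = 0.171) passed without 2 h hypoxia replicate 2 (0.56, adjusted p = 0.0254). EXLA3 and EXLA1 are near neighbours on the chromosome, with 1 annotated gene between them in the RefSeq table (TAIR10.1).

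EXLB1 fell late. Its signal was 6.22, 6.65 and 6.70 after 2 h of hypoxia, against 6.29, 6.43 and 6.66 in 2 h of air. It was 5.20, 5.21 and 5.38 after recovery and 5.75, 5.55 and 5.89 after 9 h of hypoxia, against 6.43, 6.07 and 5.93 in 9 h of air. The 2 h groups overlapped, and the 3 later groups did not, with recovery lowest and air highest. Recovery was 1.84-fold below 9 h of air (-0.88 ± 0.17, adjusted p = 0.000114).

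The steps within the late course of EXLB1 were near the threshold, -0.42 ± 0.17 for 9 h of hypoxia against air (adjusted p = 0.046) and -0.47 ± 0.17 for recovery against 9 h of hypoxia (adjusted p = 0.048). The first ended with any of 4 arrays left out: 9 h hypoxia replicate 1 (-0.43, adjusted p = 0.0765) or 2 (-0.32, 0.182), and 9 h air replicate 1 (-0.28, 0.234) or 2 (-0.45, 0.0625). The second ended with any array left out except 9 h hypoxia replicate 2, with values of -0.53 to -0.39 and adjusted p of 0.0577 to 0.182. Array means or medians subtracted also ended the first (-0.40, adjusted p = 0.0575, and -0.26, adjusted p = 0.216).

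**Figure D2:**
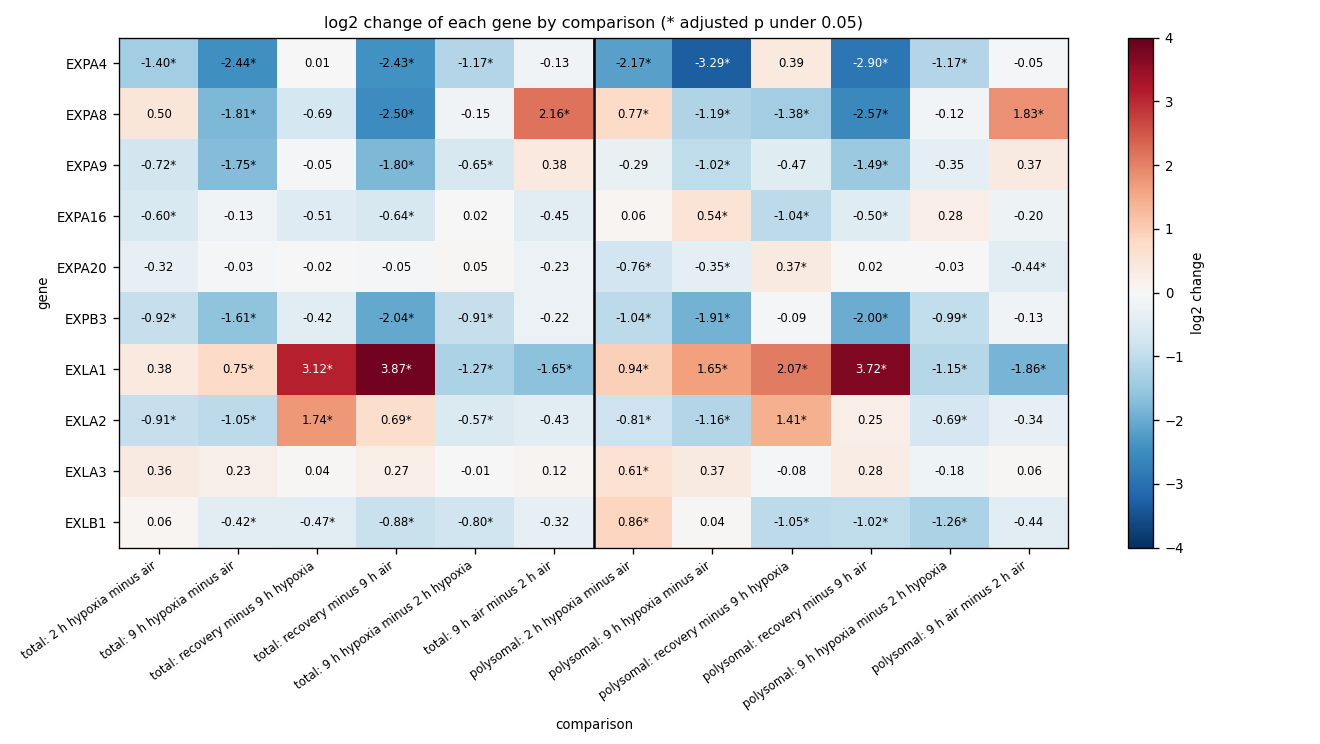
Log2 change of each gene (vertical axis) in each comparison (horizontal axis, total RNA left of the line and polysomal RNA right of it), coloured from lower (blue) to higher (red), with an asterisk where limma's adjusted p was under 0.05. EXPA4 and EXPB3 are lower wherever hypoxia or recovery is set against air, EXLA1 has its largest rises in the comparisons with recovery, and EXPA8 is the only gene with a called rise between the air groups, in both pools.

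The effect of hypoxia was tested for a difference between 9 h and 2 h in total RNA. Of the 10 genes 0 were called higher and 2 lower, beside 8.12% and 10.1% of all probe sets, and the median difference was -0.31, against 0.04 over all probe sets. The called probe sets were 44.6% higher, and 60.3% with medians subtracted. The 9 h effect was below the 2 h effect by 2.31 ± 0.36 for EXPA8 (adjusted p = 4.16e-05) and by 1.03 ± 0.27 for EXPA9 (adjusted p = 0.00842). The EXPA9 call ended without replicate 2 or replicate 3 of all groups (-1.01, adjusted p = 0.0667, and -0.83, adjusted p = 0.138). Each of these differences has 2 sources, the hypoxia groups and the air groups. For EXPA8 the air groups differed by 2.16 and the hypoxia groups by -0.15, and for EXPA9 the air groups differed by 0.38 (adjusted p = 0.34) and the hypoxia groups by -0.65 (adjusted p = 0.0109). The difference of EXPA4, -1.04, missed the threshold (adjusted p = 0.0628) and passed it with the replicate block (0.0208), without 2 h hypoxia replicate 1 (-1.21, adjusted p = 0.0393) or without 2 h air replicate 3 (-1.22, adjusted p = 0.0419). The difference of EXPB3, -0.69, was not called (adjusted p = 0.0912) and passed with only the groups compared (0.0255). That of EXPA16, 0.48 (adjusted p = 0.285), passed without 2 h hypoxia replicate 2 (0.80, adjusted p = 0.0185).

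Between the 2 air groups in total RNA, 1 of the 10 genes was higher at 9 h (EXPA8) and 1 lower (EXLA1), where 2.81% and 4.24% of probe sets were called. The medians were -0.23 for the 10 genes and -0.01 for all probe sets. EXLA2 was also lower at 9 h of air with the replicate block (-0.43, adjusted p = 0.046, against 0.218 without it).

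The hypoxia groups themselves were compared after the values above had been seen. At 9 h 0 genes were higher and 6 lower than at 2 h in total RNA, beside 13.8% and 17.7% of probe sets, with medians of -0.61 for the 10 genes and 0.04 for all. The share of called probe sets that were higher was 43.8%, and 71.0% with medians subtracted. EXPA4 fell by 1.17, EXPB3 by 0.91, EXPA9 by 0.65, EXLA1 by 1.27, EXLB1 by 0.80 and EXLA2 by 0.57. Calls for EXPA9 and EXLA2 ended without 2 h hypoxia replicate 3 (-0.56, adjusted p = 0.0557, and -0.50, adjusted p = 0.0825), and that for EXLA2 also without 9 h hypoxia replicate 1 (-0.48, adjusted p = 0.0901).

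Root and shoot markers were set beside these results. The mean log2 signal of the 3 root markers was 7.30 to 7.67 over the arrays of 2 h of hypoxia, against 8.54 to 8.63 in 2 h of air. It was 6.61 to 6.70 after recovery and 6.82 to 7.01 after 9 h of hypoxia, against 8.58 to 8.69 in 9 h of air. All 3 root markers fell at 2 h and at 9 h, and 2 of them, EXPA7 and EXPA18, are themselves expansins of root hairs. The shoot marker LHCB4.2 was 10.91 to 10.95 after 2 h of hypoxia, against 11.16 to 11.39 in 2 h of air. It was 11.28 to 11.42 after recovery and 10.83 to 11.06 after 9 h of hypoxia, against 12.97 to 12.99 in 9 h of air, and like EXPA8 it was higher in 9 h than in 2 h of air. LHCB4.2 fell at 9 h of hypoxia, by 2.05, but was not called at 2 h (-0.34, adjusted p = 0.168). Between recovery and 9 h of hypoxia 1 of the 3 root markers fell and LHCB4.2 was not called (0.41, adjusted p = 0.0769). The part of these markers in the expansin results was not tested.

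In polysomal RNA, EXPA4 and EXPB3 were lower under hypoxia at both times and after recovery, and EXLA1 was 13.2-fold above 9 h of air after recovery. EXPA9 was called lower at 9 h and after recovery but not at 2 h. After 2 h of hypoxia 4 of the 10 genes were higher and 4 lower in polysomal RNA, where 15.7% and 17.6% of probe sets were called. The medians were -0.12 for the 10 genes and -0.02 for all. After 9 h 2 were higher and 6 lower, beside 22.6% and 25.3%, with medians of -0.68 and 0.05. Recovery minus 9 h of hypoxia had 3 higher and 3 lower, beside 18.9% and 18.1%, with medians of -0.09 and -0.05. Recovery minus 9 h of air had 1 higher and 6 lower, beside 17.1% and 19.9%, with medians of -0.76 and 0.00. The 4 rises at 2 h (EXPA8, EXLA1, EXLA3 and EXLB1) were not called on the deposited scale (-0.06, 0.12, -0.21 and 0.04). The 4 falls at 2 h (EXPA4, EXPA20, EXPB3 and EXLA2) were called on both scales.

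All of these polysomal values are relative to the mean of their array. On the deposited scale the median of all probe sets was -0.85 at 2 h, -0.97 at 9 h, 0.81 for recovery minus 9 h of hypoxia and -0.16 for recovery minus 9 h of air. Polysomal changes and comparisons between pools that turn on the deposited scale are given with both values, called or not. The share of called probe sets that rose was 47.1% at 2 h, 47.2% at 9 h, 51.1% for recovery minus 9 h of hypoxia and 46.2% for recovery minus 9 h of air, against 3.0%, 4.9%, 97.2% and 27.4% on the deposited scale. With medians subtracted, the 9 h share was 60.3%.

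In polysomal RNA the shoot marker LHCB4.2 was lower by 0.66 at 2 h and 2.6 at 9 h of hypoxia and by 1.98 after recovery, against air. Of the 3 root markers 1 rose and 1 fell at 2 h, 0 rose and 1 fell at 9 h, and 0 rose and 2 fell for recovery against 9 h of air. The mean deposited signal of the root markers was 5.84 to 5.95 over the arrays of 2 h of hypoxia, against 6.72 to 6.81 in 2 h of air. It was 5.92 to 6.04 after recovery and 5.6 to 5.75 after 9 h of hypoxia, against 6.85 to 6.91 in 9 h of air. These deposited signals carry the level of the arrays, whose means were 4.54 at 2 h and 4.34 at 9 h of hypoxia, against 5.36 in each air group. With array means subtracted, the median change of the 3 root markers was -0.04 at 2 h, -0.2 at 9 h and -0.77 for recovery against 9 h of air. The part of the root and shoot markers in the polysomal results was not tested.

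**Figure D3:**
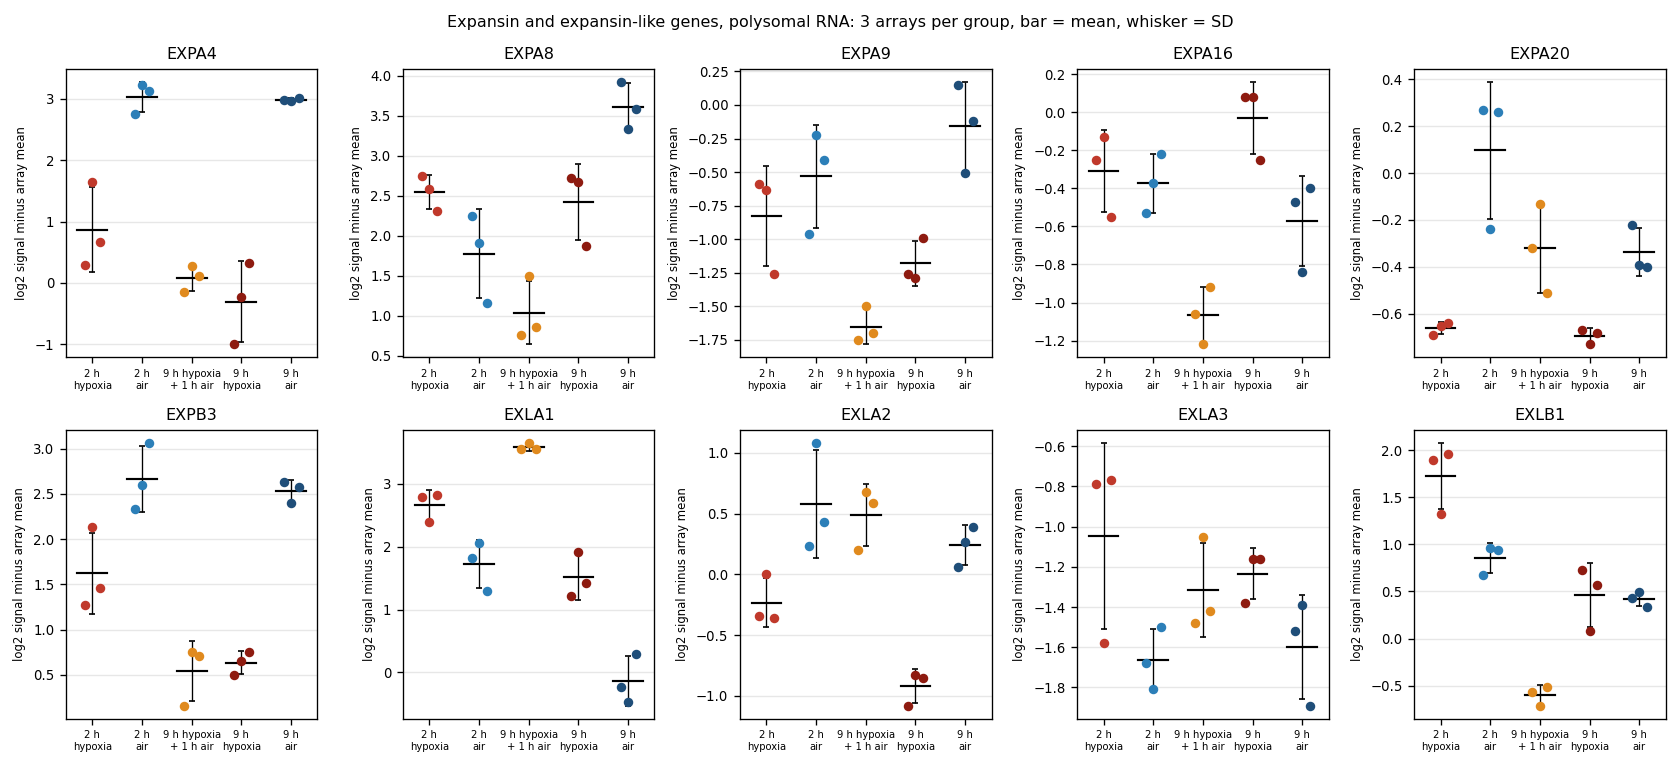
Log2 signal in polysomal RNA minus the mean of the array (vertical axes, one panel per gene) in each of 3 arrays per group (points), with the group mean (bar) and SD (whisker). The EXPA4 arrays of 9 h of air lie between 2.96 and 3.01, above all hypoxia and recovery arrays, and the EXLA1 arrays after recovery lie between 3.55 and 3.65.

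EXPA4 was 0.30, 1.64 and 0.66 in polysomal RNA after 2 h of hypoxia, against 2.76, 3.22 and 3.12 in 2 h of air. It was -0.14, 0.28 and 0.12 after recovery and -1.0, -0.23 and 0.32 after 9 h of hypoxia, against 2.98, 2.96 and 3.01 in 9 h of air. The treated and air arrays did not overlap at either time. The change was -2.17 ± 0.27 at 2 h (4.49-fold lower, adjusted p = 5.9e-07), -3.29 ± 0.27 at 9 h (9.78-fold lower, adjusted p = 1.49e-10) and -2.90 ± 0.27 for recovery against air (7.45-fold lower, adjusted p = 2.58e-09). Between recovery and 9 h of hypoxia EXPA4 differed by 0.39 (adjusted p = 0.283), which passed without 9 h hypoxia replicate 3 (0.70, adjusted p = 0.049) and on the deposited scale (1.25, 0.000159).

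EXPB3, the beta-expansin, was 1.27, 2.13 and 1.46 after 2 h of hypoxia, against 2.33, 2.6 and 3.06 in 2 h of air. It was 0.16, 0.75 and 0.71 after recovery and 0.50, 0.65 and 0.75 after 9 h of hypoxia, against 2.63, 2.40 and 2.57 in 9 h of air. Again no treated array reached the air arrays of its time, and recovery overlapped 9 h of hypoxia. The polysomal change was -1.04 ± 0.20 at 2 h (adjusted p = 0.000144), -1.91 ± 0.20 at 9 h (adjusted p = 8.4e-09) and -2.0 ± 0.20 for recovery against air (adjusted p = 7.3e-09). The 2 h change was -0.77 without replicate 3 (adjusted p = 0.0518). Its difference between recovery and 9 h of hypoxia, -0.09, was 0.76 on the deposited scale.

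Polysomal EXPA8 was 2.74, 2.58 and 2.31 after 2 h of hypoxia, against 2.25, 1.91 and 1.16 in 2 h of air. It was 0.76, 1.49 and 0.86 after recovery and 2.72, 2.67 and 1.87 after 9 h of hypoxia, against 3.92, 3.33 and 3.58 in 9 h of air. The 2 h groups did not overlap, and neither did the 3 later groups. The 2 h change was 0.77 ± 0.25 (adjusted p = 0.0195), but -0.06 on the deposited scale, and the call ended without 2 h hypoxia replicate 1 (0.67, adjusted p = 0.0862) or 2 h air replicate 3 (0.46, adjusted p = 0.197). At 9 h it was -1.19 ± 0.25 (adjusted p = 0.0003), and recovery lay below 9 h of hypoxia by 1.38 (adjusted p = 7.72e-05; -0.53 and not called on the deposited scale, adjusted p = 0.0516) and 5.95-fold below 9 h of air. As in total RNA, EXPA8 was higher in 9 h than in 2 h of air, by 1.83 ± 0.25 (adjusted p = 1.19e-05).

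EXPA9 was -0.59, -0.63 and -1.26 in polysomal RNA after 2 h of hypoxia, against -0.96, -0.22 and -0.41 in 2 h of air, groups that overlapped (-0.29, adjusted p = 0.282; -1.12 and called on the deposited scale, 7.01e-06). It was -1.75, -1.50 and -1.70 after recovery and -1.26, -1.29 and -0.99 after 9 h of hypoxia, against 0.15, -0.51 and -0.12 in 9 h of air, with no overlap among the 3. EXPA9 was 2.03-fold lower at 9 h (-1.02 ± 0.19, adjusted p = 8.1e-05) and 2.81-fold lower after recovery than in air (-1.49 ± 0.19, adjusted p = 6.61e-07). These polysomal signals were low, at the 40.1 percentile of probe sets after 9 h of hypoxia and 30.6 after recovery. From 9 h of hypoxia, recovery differed by -0.47 (adjusted p = 0.0598; called with medians subtracted, -0.53, 0.0295; 0.39 and not called on the deposited scale, 0.0636).

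The hypoxia changes of EXPA16 were not shown to differ between pools, as the test of that difference given below did not pass at 2 h or 9 h. In polysomal RNA EXPA16 was -0.25, -0.13 and -0.55 after 2 h of hypoxia, against -0.53, -0.37 and -0.22 in 2 h of air (change 0.06, adjusted p = 0.869; -0.77 on the deposited scale). It was -1.06, -1.22 and -0.92 after recovery and 0.08, 0.08 and -0.25 after 9 h of hypoxia, against -0.47, -0.84 and -0.40 in 9 h of air. The late groups did not overlap, with 9 h of hypoxia highest and recovery lowest. At 9 h the change was 0.54 ± 0.20 (adjusted p = 0.0262), and on the deposited scale it was -0.48, so its direction depends on the scale. That call ended without 9 h hypoxia replicate 1 (0.48, adjusted p = 0.0851) or 2 (0.49, 0.0808) or 9 h air replicate 2 (0.40, 0.133).

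After recovery, polysomal EXPA16 lay 1.04 below 9 h of hypoxia (adjusted p = 0.000122; -0.18 and not called on the deposited scale, adjusted p = 0.379). It lay 0.50 below 9 h of air with an adjusted p of 0.04996, which was 0.0529 with the replicate block and ended without any recovery array or without 9 h air replicate 1 or 3 (values of -0.57 to -0.41, adjusted p of 0.0516 to 0.176).

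EXPA20 had called changes in polysomal RNA and none in total RNA, but the test of the difference between pools did not pass. It was -0.69, -0.65 and -0.64 after 2 h of hypoxia, against 0.27, -0.24 and 0.26 in 2 h of air. After recovery it was -0.32, -0.13 and -0.51 and after 9 h of hypoxia -0.67, -0.73 and -0.68, against -0.22, -0.39 and -0.40 in 9 h of air. All hypoxia arrays were below the air and recovery arrays. The change was -0.76 ± 0.13 at 2 h (1.69-fold lower, adjusted p = 2.82e-05), -0.35 ± 0.13 at 9 h (adjusted p = 0.0232) and 0.37 ± 0.13 for recovery against 9 h of hypoxia (adjusted p = 0.0221).

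Recovery minus 9 h of air was 0.02, and -0.14 on the deposited scale, with no call on either. The smaller EXPA20 calls rested on single arrays. The 9 h call ended without 9 h air replicate 1 (-0.29, adjusted p = 0.1) or 9 h hypoxia replicate 2 (-0.33, 0.0618), and with medians subtracted (-0.25, 0.0871). The recovery call ended without recovery replicate 1 (0.36, adjusted p = 0.05019) or 2 (0.27, 0.137) or 9 h hypoxia replicate 2 (0.35, 0.0604). The 9 h air group was below the 2 h air group by 0.44 (adjusted p = 0.0267), a call that ended without 2 h air replicate 1 (-0.35, 0.153) or 3 (-0.35, 0.154) or 9 h air replicate 2 (-0.41, 0.0952) or 3 (-0.40, 0.102).

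EXLA1 was 2.79, 2.39 and 2.82 in polysomal RNA after 2 h of hypoxia, against 1.82, 2.06 and 1.3 in 2 h of air. It was 3.55, 3.65 and 3.55 after recovery and 1.21, 1.92 and 1.42 after 9 h of hypoxia, against -0.23, -0.47 and 0.30 in 9 h of air. Here hypoxia lay above air at both times, and recovery above both. The change was 0.94 ± 0.25 at 2 h (1.92-fold higher, adjusted p = 0.00466), 1.65 ± 0.25 at 9 h (3.14-fold higher, adjusted p = 4.74e-06), 2.07 ± 0.25 for recovery against 9 h of hypoxia (4.19-fold higher, adjusted p = 2.83e-07) and 3.72 ± 0.25 for recovery against air (13.2-fold higher, adjusted p = 1.18e-11). On the deposited scale the 2 h change was 0.12 and not called (adjusted p = 0.668), and without replicate 1 or replicate 3 of both groups it was 0.93 and 0.65 (adjusted p of 0.0737 and 0.0713). The 9 h air group was 3.63-fold below the 2 h air group (adjusted p = 1.05e-05).

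EXLA2 was -0.34, 0.00 and -0.36 in polysomal RNA after 2 h of hypoxia, against 0.23, 1.08 and 0.43 in 2 h of air. It was 0.20, 0.68 and 0.59 after recovery and -1.08, -0.83 and -0.85 after 9 h of hypoxia, against 0.06, 0.27 and 0.39 in 9 h of air. Hypoxia lay below air at both times, and recovery overlapped 9 h of air. The change was -0.81 ± 0.19 at 2 h (adjusted p = 0.00112), -1.16 ± 0.19 at 9 h (adjusted p = 8.85e-06) and 1.41 ± 0.19 for recovery against 9 h of hypoxia (adjusted p = 8.24e-07). Recovery minus 9 h of air was 0.25 with a 95% interval of -0.13 to 0.64 (adjusted p = 0.33).

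EXLA3 was -0.79, -1.58 and -0.77 after 2 h of hypoxia, against -1.68, -1.81 and -1.50 in 2 h of air. It was -1.48, -1.05 and -1.42 after recovery and -1.38, -1.16 and -1.16 after 9 h of hypoxia, against -1.52, -1.39 and -1.89 in 9 h of air. The 2 h change of 0.61 ± 0.18 was called (adjusted p = 0.00886) although the groups overlapped, was -0.21 on the deposited scale, and ended without 2 h hypoxia replicate 1 (0.49, adjusted p = 0.0702) or 3 (0.47, 0.0758). The 9 h change of 0.37 was not called (adjusted p = 0.0977) and was -0.65 on the deposited scale, and recovery minus 9 h of hypoxia was -0.08 and 0.77.

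EXLB1 was 1.89, 1.32 and 1.96 in polysomal RNA after 2 h of hypoxia, against 0.67, 0.96 and 0.94 in 2 h of air. It was -0.57, -0.71 and -0.51 after recovery and 0.73, 0.08 and 0.57 after 9 h of hypoxia, against 0.43, 0.49 and 0.34 in 9 h of air. The 2 h hypoxia arrays were the highest of all and the recovery arrays the lowest. The change was 0.86 ± 0.17 at 2 h (1.82-fold higher, adjusted p = 0.000246; 0.04 and not called on the deposited scale, adjusted p = 0.835), -1.05 ± 0.17 for recovery against 9 h of hypoxia (adjusted p = 1.68e-05; -0.20 and not called on the deposited scale, adjusted p = 0.262) and -1.02 ± 0.17 for recovery against air (2.02-fold lower, adjusted p = 2.71e-05). At 9 h hypoxia and air differed by 0.04 (95% interval -0.32 to 0.39), and by -0.98 on the deposited scale.

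Between the polysomal air groups 1 gene was higher at 9 h (EXPA8) and 2 lower (EXLA1 and EXPA20), beside 4% and 4.26% of probe sets, with medians of -0.16 for the 10 genes and 0.00 for all. Between the polysomal hypoxia groups, compared after the data were seen, 0 were higher and 5 lower at 9 h, beside 16% and 17.5%, with medians of -0.52 and 0.06. EXLB1 fell by 1.26, EXPA4 by 1.17, EXLA1 by 1.15, EXPB3 by 0.99 and EXLA2 by 0.69. The EXPA4 arrays of the 2 groups overlapped, and its call ended without replicate 2 of both (-0.82, adjusted p = 0.0543), as that of EXLA1 did without replicate 1 (-0.94, 0.0678). EXPA9 (-0.35) passed without 2 h hypoxia replicate 3 (-0.57, 0.032) and EXLA3 (-0.19) without 2 h hypoxia replicate 2 (-0.45, 0.0416). Called probe sets were 47.7% higher, 61.0% with medians subtracted and 20.1% on the deposited scale.

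The association change, the polysomal change minus the total change of the same conditions, asks whether ribosome-bound RNA moved more or less than the RNA itself. At 2 h 1 of the 10 genes was called higher and 0 lower, beside 7.38% and 7.62% of probe sets. This was EXLB1, whose association change was 0.79 ± 0.24 (adjusted p = 0.0269): its polysomal level rose by 0.86 under 2 h of hypoxia while its total level changed by 0.06. On the deposited scale the value was -0.03, and the call ended without 1 of 5 arrays: 2 h hypoxia polysomal replicate 1 (0.71, adjusted p = 0.0783) or 3 (0.67, 0.0862), 2 h hypoxia total replicate 1 (0.64, 0.0897), 2 h air polysomal replicate 1 (0.70, 0.0761) or 2 h air total replicate 3 (0.70, 0.0755).

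Among the other genes at 2 h, EXPA4 (-0.78, adjusted p = 0.197) passed without polysomal 2 h hypoxia replicate 2 (-1.17, 0.0169), and EXPA16 (0.66, 0.126) without total 2 h hypoxia replicate 2 (0.98, 0.00503). EXPA20 (-0.45, 0.0908) passed without polysomal 2 h air replicate 2 (-0.62, 0.0109) or total 2 h hypoxia replicate 3 (-0.56, 0.044). At 2 h the association changes of EXPA8 (0.26), EXPA9 (0.42), EXPA16 (0.66) and EXLA1 (0.55) were -0.56, -0.40, -0.16 and -0.26 on the deposited scale, and those of EXLA2 (0.09) and EXLA3 (0.24) were -0.73 and -0.58. On the deposited scale the share of called probe sets with a higher association was 0.3% at 2 h, 0.8% at 9 h, 99.3% for recovery minus 9 h of hypoxia and 34.4% for recovery minus 9 h of air, against 49.2%, 47.6%, 51.1% and 78.0% with means subtracted.

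For recovery minus 9 h of hypoxia 0 genes were called higher and 1 lower, beside 11.2% and 10.8%. EXLA1 rose by 2.07 in polysomal RNA and by 3.12 in total RNA, an association change of -1.04 ± 0.36 (adjusted p = 0.0379), which was -0.20 and not called on the deposited scale (adjusted p = 0.609). It ended with any of 8 single arrays left out, with values of -1.07 to -0.84 and adjusted p of 0.0536 to 0.118. These were total recovery replicates 1 and 2, total 9 h hypoxia replicates 1 and 3, all 3 polysomal recovery arrays and polysomal 9 h hypoxia replicate 2. EXLB1, at -0.57 (adjusted p = 0.0977), passed without polysomal 9 h hypoxia replicate 2 (-0.76, 0.0211), and was 0.27 on the deposited scale. The values of EXPA8 (-0.68), EXPA9 (-0.40), EXPA16 (-0.52), EXLA2 (-0.31) and EXLA3 (-0.11) also turned there, to 0.16, 0.44, 0.33, 0.53 and 0.73.

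At 9 h of hypoxia 0 of the 10 genes were called by limma, beside 11.5% higher and 12.7% lower over all probe sets, and 4 had an unadjusted p under 0.05: EXPA4 (-0.86, adjusted p = 0.107), EXPA9 (0.72, adjusted p = 0.0584), EXPA16 (0.65, adjusted p = 0.0947) and EXLA1 (0.89, adjusted p = 0.0761). EXPA4 passed with the replicate block (adjusted p = 0.0447) and without polysomal 9 h hypoxia replicate 3 (-1.17, adjusted p = 0.0215). EXPA9 passed without replicate 1 of 9 h air in the total (0.87, adjusted p = 0.0269) or polysomal pool (0.87, 0.0279), EXPA16 without total 9 h air replicate 3 (0.81, 0.0464), and EXLA1 without total 9 h hypoxia replicate 2 (1.07, 0.0412) or polysomal 9 h air replicate 3 (1.1, 0.0319). On the deposited scale the values of EXPA9, EXPA16 and EXLA1 were -0.29, -0.35 and -0.12, and EXPA8 (0.61), EXLA3 (0.12) and EXLB1 (0.44) turned as well, to -0.39, -0.88 and -0.56.

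For recovery minus 9 h of air 0 genes were called, beside 1.13% and 0.317% of probe sets, and 0 had an unadjusted p under 0.05. The values lay between -0.47 for EXPA4 (95% interval -1.25 to 0.32) and 0.31 for EXPA9 (95% interval -0.25 to 0.88). EXPA16 (0.14), EXPA20 (0.07), EXPB3 (0.04) and EXLA3 (0.01) were -0.02, -0.09, -0.12 and -0.15 on the deposited scale. The medians of the association change over the 10 genes were 0.25 at 2 h, 0.28 at 9 h, -0.36 for recovery minus 9 h of hypoxia and -0.03 for recovery minus 9 h of air, against medians of 0.00, 0.02, -0.01 and -0.01 over all probe sets.

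**Figure D4:**
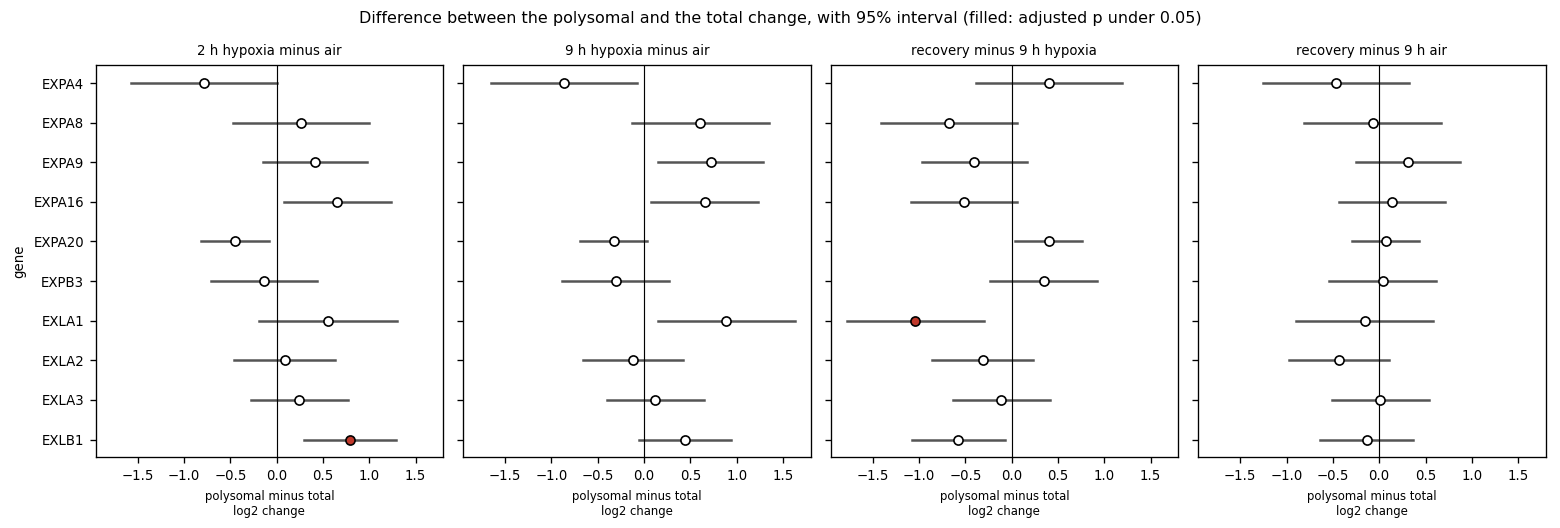
Association change (horizontal axes, polysomal log2 change minus total log2 change) of each gene in 4 comparisons, with its 95% interval, filled where limma's adjusted p was under 0.05. EXLB1 at 2 h (0.79) and EXLA1 for recovery minus 9 h of hypoxia (-1.04) are the filled points, and most other intervals cover 0.

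In air alone, polysomal and total levels were compared after subtracting array means. At 2 h 1 gene was higher in polysomal than in total RNA and 2 lower, beside 20.3% and 19.4% of probe sets. EXPA8 was higher by 0.86 ± 0.25 (adjusted p = 0.00785), and EXPA16 and EXPA9 were lower, by 1.0 ± 0.20 (adjusted p = 0.000181) and 0.55 ± 0.19 (adjusted p = 0.0246). At 9 h 1 gene was higher and 2 lower, beside 20% and 18.1%: EXLA2 was higher by 0.54 ± 0.19 (adjusted p = 0.0231), and EXPA16 and EXPA9 were lower, by 0.76 ± 0.20 (adjusted p = 0.00297) and 0.57 ± 0.19 (adjusted p = 0.0202). EXPA16 was thus called lower in the polysomal pool at both times. With the replicate block EXLA2 was also called at 2 h (0.46, adjusted p = 0.00732) and EXPA8 at 9 h (0.52, adjusted p = 0.0421). On the deposited scale EXPA8 at 2 h was 0.44 and EXLA2 at 9 h 0.12, neither called (adjusted p of 0.123 and 0.552), and EXPA20 at 9 h, 0.02, was -0.40. Of the values not called on either scale, EXPA4, EXPA20, EXPB3, EXLA1, EXLA3 and EXLB1 at 2 h (0.07 to 0.35) and EXPA4, EXPB3, EXLA3 and EXLB1 at 9 h (0.05 to 0.27) were all below 0 on the deposited scale. The share of called probe sets that were higher in the polysomal pool was 51.1% at 2 h and 52.5% at 9 h, 64.0% and 61.1% with medians subtracted, and 11.4% and 11.5% on the deposited scale.

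Other calls between the pools in air depended on single arrays. EXPA8 at 2 h ended without polysomal replicate 1 (0.62, adjusted p = 0.0734) or total replicate 3 (0.71, 0.0523), and EXPA9 at 2 h without polysomal replicate 1 (-0.34, 0.196) or total replicate 1 (-0.52, 0.0709) or 2 (-0.51, 0.0759). At 9 h EXPA9 ended without polysomal replicate 2 (-0.40, 0.152) or total replicate 2 (-0.51, 0.0744) or 3 (-0.48, 0.0937). EXLA2 at 9 h ended without polysomal replicate 2 (0.52, 0.0615) or 3 (0.47, 0.0893) or total replicate 1 (0.43, 0.113). EXPA20 at 2 h of air, 0.24 higher in the polysomal pool and not called (adjusted p = 0.143), passed without polysomal replicate 2 (0.40, 0.0099), and EXLA2 at 2 h without polysomal replicate 1 (0.64, 0.0128) or 3 (0.54, 0.0482) or total replicate 2 (0.61, 0.0201). EXPA16 at 9 h ended without replicate 1 of both pools (-0.69, 0.0535).

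The courses of the 10 genes were set side by side over the 30 arrays, after removing each pool's mean for each gene. These correlations describe arrays that share conditions and samples. The closest pair was EXPA4 and EXPB3 (Pearson r = 0.955), followed by EXPA9 with EXPB3 (0.874) and EXPA4 with EXPA9 (0.842). EXPA8 was farther from these 3 (0.408 to 0.652), and its value with EXLA1 was -0.74, the lowest of the 45 pairs. EXLA1 and EXLA2, both called higher after recovery than after 9 h of hypoxia in each pool, had an r of 0.356.

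Among all genes with a named probe set, the 3 most like EXPA4 by the same measure were AT3G62360, AT4G32120 and AT5G40830 (r = 0.968, 0.967 and 0.966). Those most like EXPB3 were AT3G15680, AT2G28410 and GH9C2, a glycosyl hydrolase family 9 gene (0.958, 0.952 and 0.951). EXPA9 was closest to AT5G48900 (0.935) and EXPA8 to AT2G05540 (0.927). EXLA1 was closest to AT1G35350 (0.93), EXLA2 to AT1G61100 (0.919) and EXLB1 to AT4G12060 (0.936). EXPA16, EXPA20 and EXLA3 had no gene above 0.831, the highest values being 0.796, 0.831 and 0.824.

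Of the 8 other expansin genes with a named probe set, 0 rose and 4 fell in total RNA after 2 h of hypoxia, and 0 rose and 4 fell after 9 h. Over all probe sets 8.2% rose and 12.5% fell at 2 h, and 21.3% and 24.5% at 9 h. The largest falls were in the root-hair expansin EXPA18, by 2.09 at 2 h and 2.67 at 9 h, and in EXPA15, by 1.60 at 2 h and 1.48 at 9 h. Between recovery and 9 h of air 0 rose and 4 fell, beside 18.2% and 20.6% of probe sets, with EXPA18 lower by 3.00 and EXPA15 by 1.83. From 9 h of hypoxia to recovery 0 rose and 1 fell, beside 12.5% and 9.65%. In polysomal RNA 0 rose and 2 fell at 2 h, beside 15.7% and 17.6% of probe sets. At 9 h 1 rose and 2 fell, beside 22.6% and 25.3%, and the list median was 0.12.

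Xyloglucan endotransglucosylase/hydrolases, enzymes that cut and rejoin the xyloglucan of the wall, were represented by 9 named genes. In total RNA 1 rose and 3 fell after 2 h of hypoxia, beside 8.2% and 12.5% of all probe sets, with a list median of -0.07. After 9 h 1 rose and 4 fell, beside 21.3% and 24.5%, with a median of -0.16. XTH18 rose by 1.69 at 2 h and 1.97 at 9 h, and XTH16 fell by 0.66 and 1.86. Between recovery and 9 h of hypoxia 2 rose, XTH33 by 0.83 and XTH16 by 0.73, and 0 fell, beside 12.5% and 9.65% of probe sets. Relative to 9 h of air 1 rose (XTH18, by 2.12) and 4 fell, XTH16 by 1.12, beside 18.2% and 20.6% of probe sets.

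Polysomal levels of these 9 genes had 3 rises and 0 falls at 2 h, beside 15.7% and 17.6% of probe sets. At 9 h there were 5 rises and 2 falls, beside 22.6% and 25.3%. XTH18 was higher by 2.20 at 2 h and 3.00 at 9 h. The pectin methylesterase list had 1 named gene, PME61, which rose by 0.40 in total RNA at 9 h of hypoxia and fell by 0.42 after recovery relative to it. The lists of cellulose synthases, plasma membrane proton pumps and auxin-induced SAUR genes held no symbol of the probe gene table and were left out.

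**Figure D5:**
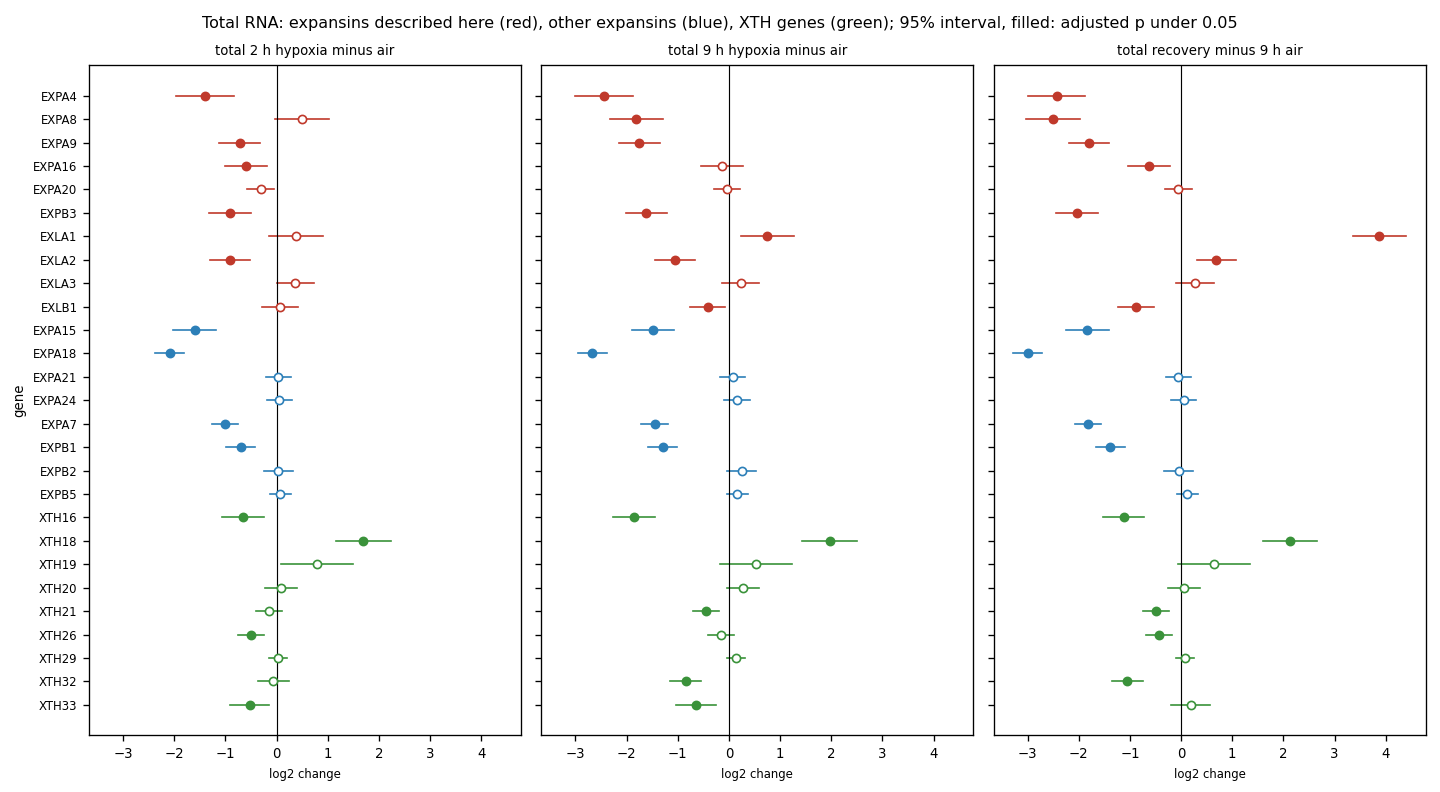
Log2 change in total RNA (horizontal axes) with 95% interval for the 10 genes described here (red), 8 other expansins (blue) and 9 XTH genes (green), filled where limma's adjusted p was under 0.05. EXPA18 has the largest fall in all 3 panels, and EXLA1 (3.87) has the largest rise for recovery minus 9 h of air.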

How the data were processed

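The 30 Affymetrix arrays cover total and polysomal RNA of 5 conditions in 3 replicate experiments, which the labels call independent and biological. The deposited values are log2 signals. Per the submitters' processing notes, RMA was used. Its version, and the set of arrays it was run on, are not stated in the labels or the file header. Probe-level signals were not used here.

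The table has 22810 probe sets. Without its 64 controls, 22746 were tested, with no filter on signal. 13513 probe sets had 1 gene symbol, 503 several and 8730 none. Symbols and loci came from the probe table and the RefSeq gene table, and all 10 genes matched. limma 3.58.1 in R 4.3.3 fitted 1 mean per group to all 30 arrays (20 residual degrees of freedom, moderated variances, eBayes), on deposited values for total RNA and on mean-centred values wherever polysomal arrays entered. P-values were adjusted by Benjamini-Hochberg over 22746 probe sets in each comparison. Tables and figures were made in Python 3.11.15 with pandas 2.3.3 and matplotlib 3.10.9. The fit was tested on simulated data.

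The members, lists, comparisons and named genes (all 10, at most 2 passing genes per list and comparison, and the 3 most alike genes of each member) were chosen with earlier results of these data known. Alternatives were other centrings, quantile normalization, a filter on the dimmest 40 percent, a fit of the compared groups alone, a replicate block, and leaving out replicates or single arrays.

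To see whether replicate numbers pair arrays, residuals of arrays with the same number were correlated across probe sets. Every pair was above 0.1 in 11 of 14 comparisons of 2 groups. The exceptions were total 9 h hypoxia against air (lowest 0.031), polysomal 2 h hypoxia against air (0.017) and polysomal recovery against 9 h air (-0.061). This is a hint from the data, since the labels do not say what a number shares.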

Additional observations from a re-analysis of the deposited data

Results flagged for a closer look

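4 values rest on a tested difference between effects. In total RNA the 9 h hypoxia effect minus the 2 h effect was -2.31 (log2) for EXPA8 and -1.03 for EXPA9. The polysomal minus the total change was 0.79 for EXLB1 at 2 h of hypoxia and -1.04 for EXLA1 between recovery and 9 h of hypoxia. On deposited values these last values were -0.026 and -0.20. With 3 arrays per group, no test for single outlying arrays was made.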

How the results depend on the processing

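Of 190 tests (10 genes in 19 comparisons) 78 were called. Of these, 45 were called in every setting tried, 29 ended when a replicate or array was left out, 20 ended in another setting and 4 turned in direction on deposited values. A further 37 tests were called in some setting but not in the reported one. For recovery minus 9 h of hypoxia in total RNA 3 genes were called, and 6 with median-centred values and 5 each with quantile normalization, without the dimmest probe sets or with only the groups compared. For the 9 h minus 2 h effect 2 were called, and 4 with only the groups compared. Association at 2 h had 1 call, 5 on deposited values and 0 with only the groups compared. Association at 9 h had 0 calls, 6 on deposited values, 2 without the dimmest probe sets, 3 with only the groups compared and 1 with the replicate block. Association for recovery minus 9 h of hypoxia had 1 call, 4 on deposited values and 2 with only the groups compared. The replicate block changed 7 of 190 calls, and each of the 7 is given above. The cause of these changes was not tested.

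Leaving out replicates or arrays gave 2 to 6 calls for 2 h hypoxia in total RNA (5 reported), 5 to 7 at 9 h (7), 2 to 3 for recovery minus 9 h hypoxia (3), 7 to 8 for recovery minus air (8), 1 to 3 for the 9 h minus 2 h effect (2), 2 to 2 between air groups (2) and 4 to 6 between hypoxia groups (6). In polysomal RNA it gave 4 to 8 at 2 h (8), 6 to 8 at 9 h (8), 5 to 7 for recovery minus 9 h hypoxia (6), 6 to 7 for recovery minus air (7), 2 to 3 between air groups (3) and 4 to 6 between hypoxia groups (5). Association gave 0 to 2 at 2 h (1), 0 to 1 at 9 h (0), 0 to 1 for recovery minus 9 h hypoxia (1) and 0 to 0 for recovery minus air (0). Polysomal minus total in air gave 2 to 4 at 2 h (3) and 1 to 3 at 9 h (3).

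On deposited values, which carry the lower level of the polysomal hypoxia arrays, 44 values turned, of which 15 were called on either scale and the rest stand beside their values above. The called ones in polysomal RNA were EXPA8 (-0.059), EXPA16 (-0.77) and EXLA3 (-0.21) at 2 h, EXPA16 (-0.48), EXLA3 (-0.65) and EXLB1 (-0.98) at 9 h, and EXPB3 (0.76) and EXLA3 (0.77) for recovery minus 9 h hypoxia. In association they were EXLA2 (-0.73), EXLA3 (-0.58) and EXLB1 (-0.026) at 2 h, EXLA3 (-0.88) and EXLB1 (-0.56) at 9 h and EXLA3 (0.73) for recovery minus 9 h hypoxia. EXPA20 in polysomal against total RNA at 9 h of air was -0.40. The file has no detection calls, so how far the low signals of EXLA3 stand above background is not known. The same holds for polysomal EXPA9 after 9 h of hypoxia and after recovery.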

Other observations

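Replicate 2 of 2 h of hypoxia lay nearest to the mean of 2 h of air for several genes. In total RNA these were EXPA4, EXPA16, EXPB3, EXLA3 and EXLB1 (7.68, 6.47, 7.54, 3.73 and 6.65). In polysomal RNA they were EXPA4, EXPB3, EXLA1, EXLA2, EXLA3 and EXLB1 (1.64, 2.13, 2.39, 0.0, -1.58 and 1.32). For the remaining genes of each pool another replicate was nearest. This was noticed in the values and not tested. Root-hair expansins, which are not among the 10 genes, had larger differences between the pools in 2 h of air than any of the 10. EXPA18 was 2.05 lower in polysomal than in total RNA and EXPA7 1.42 lower, although genes were not tested against each other. Their association change at 9 h of hypoxia was 2.19 and 1.51. Polysomal signals of both genes were low. EXPA18 stood at the 42.5 percentile of probe sets in 9 h of air and at 33.1 after 9 h of hypoxia. EXPA7 stood at 34.5 and 35.0. How far these signals stand above background is not known.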
